A study of Mus musculus with 12 samples.

Results

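The opioid system of the mouse cervical spinal cord was examined through 8 genes, the 4 precursors of the opioid peptides (Penk, Pdyn, Pnoc and Pomc) and the 4 opioid receptors (Oprm1, Oprd1, Oprk1 and Oprl1). They were chosen by name, with earlier results of these data known. All 8 were found among the 20178 gene symbols of the gene-level table, in 9 transcript clusters, since Oprk1 had a second one. At the exon level they had 94 probesets. Spinal motor neurons (SMNs) were compared with tissue of the posterior horn, with 3 Affymetrix Mouse Exon 1.0 ST arrays for each. According to the methods, large cells were cut by laser from the anterior horn of 3 male C57BL/6J mice (C57Bl/6 in the labels) aged 6 weeks, whereas the posterior horn material was whole areas of dorsal horn from 3 mice, with every cell type they held. For neither group do the labels name an altered allele or a treatment. The sample labels call the former anterior horn cells and the latter posterior column. RNA was amplified linearly, and the sources do not say whether each array was 1 mouse or a pool, so the p-values refer to the spread among arrays, which may be technical.

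Opioid peptides are cut from large precursor proteins and released from dense-core vesicles. Penk gives the enkephalins, Pdyn the dynorphins, Pnoc nociceptin, and Pomc beta-endorphin along with corticotropin and the melanocortins. Their receptors act through inhibitory G proteins, which lower cyclic AMP, close presynaptic calcium channels and open inwardly rectifying potassium channels. In the superficial dorsal horn, enkephalin and dynorphin neurons and the mu receptor, encoded by Oprm1, are known for dampening pain transmission.

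The labels were checked against marker genes. Of 6 motor neuron markers, 5 were higher in SMNs and the summed intensity of the 6 was 16897 to 17799 in SMN arrays against 375 to 482 in posterior horn arrays. Mnx1 was the exception, at 161 ± 22.9 in SMNs and 229 ± 14.05 in the posterior horn (mean ± SD, n = 3 each). All its SMN arrays lay below all posterior horn arrays (unadjusted p = 0.0223 from limma), but it did not pass the test described below. This direction differs from the paper, which reports Mnx1 as more specific to SMNs than Rspo2 by microarray. The posterior horn arrays carried more summed signal of most other cell types, though not of every marker. The summed intensity of 5 inhibitory neuron markers, of which 3 were lower in SMNs, was 13627 to 14819 in the posterior horn against 4731 to 5213 in SMNs. Slc32a1 (means of 2746 against 1997) and Slc6a5 (2518 against 2269) did not pass. For 3 excitatory dorsal horn markers, of which 1 was lower (Slc17a6, 3912 against 1309), the sums were 4084 to 4667 against 1657 to 1985. Lmx1b (226 in the posterior horn against 190 in SMNs) and Tlx3 (276 against 309) did not pass, and Tlx3 went the other way. All 5 measured markers of astrocytes were lower in SMNs (sums of 11077 to 11943 against 3491 to 3657), as were all 5 of oligodendrocytes (20875 to 21982 against 10379 to 11264), all 5 of microglia (3750 to 4018 against 1459 to 1508) and 4 of 5 of endothelium (1600 to 2124 against 534 to 639). Of 4 primary sensory markers none passed, with 1 higher and 1 lower at an unadjusted limma p under 0.05 and none by the methods' t-test after adjustment, and their sums overlapped (305 to 381 against 266 to 397). No marker was at 0 on any array. In the comparisons below, fewer cells of a type and less RNA per cell cannot be told apart, and the part of these other cells in each result was not tested.

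Of the 8 opioid genes, 3 were lower in SMNs at an adjusted p under 0.05, namely Penk, Oprm1 and Pnoc, and 5 did not pass the test. Intensities were compared as log2(intensity + 1) with limma, and p-values were adjusted by Benjamini-Hochberg over 24343 transcript clusters, so each fold below is on that scale and understates the change of dim genes. Across all transcript clusters tested, 12.6% were lower and 13.8% higher by the same rule. No opioid gene was higher, also at an unadjusted p under 0.05 from limma or by the methods' t-test. By the methods' t-test after adjustment 2 of the 8 genes were lower, Penk and Oprm1, against 2574 of 24343 transcript clusters. In 4 of the 8 genes all SMN arrays lay below all posterior horn arrays, and in none above. Among all transcript clusters 21.4% lay below and 24.1% above in this way, 45.6% in all. By the two-sided exact permutation test of single genes, these 4 reached p = 0.1, the smallest this test can give with 3 arrays per group, and the other 4 had p from 0.2 to 0.8. The median log2 difference of the 8 genes was -0.79, while that of all transcript clusters was 0.02. The plot of intensities by array shows the values described next.

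**Figure D1:**
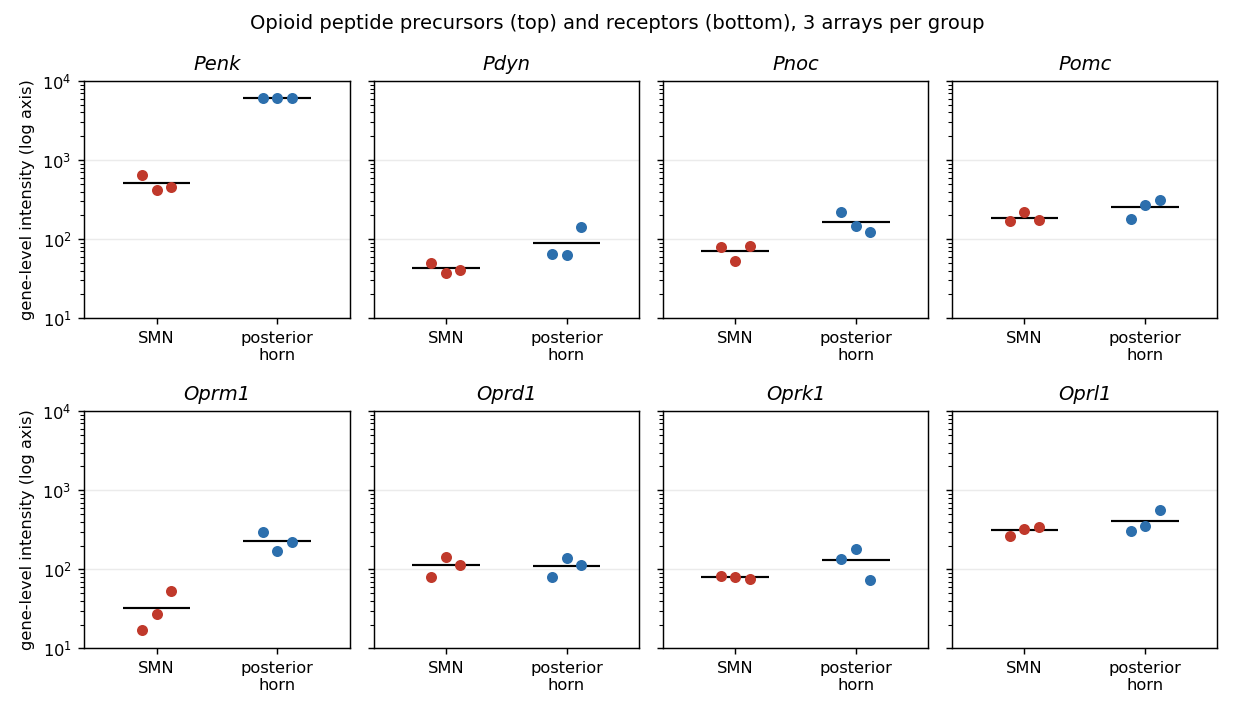
Gene-level intensity on a log axis for each opioid gene, with 1 point per array (red, SMN; blue, posterior horn; 3 arrays each) and a line at the group mean. Penk lay at 417 to 650.1 in SMNs and 6051 to 6156 in the posterior horn, Oprm1 also separated the groups, and the values of Oprd1 overlapped.

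Penk, the enkephalin precursor, showed the largest difference of the 8 genes. In order of replicate number, the SMN arrays had intensities of 650.1, 417 and 458, and the posterior horn arrays of 6068, 6051 and 6156. The posterior horn arrays differed from each other by little, with a coefficient of variation of 0.926%, and the SMN arrays by more, with 24.5%. Penk was 12.2-fold lower in SMNs (95% interval 8.64 to 17.2, log2 difference -3.61, standard error 0.20, adjusted p = 0.00046 from limma). A fall of 10-fold or more with the same adjusted p was seen in 0.501% of the transcript clusters. Penk signal was still present in SMN arrays, where the mean was 8.35% of the posterior horn mean. The call was held in all 18 alternative analyses, in which the log2 difference ranged from -3.80 to -2.42.

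At the exon level, Penk had 6 probesets, which the platform annotation lists under the older symbol Penk1. Of these, 4 were lower in SMNs and none was higher, with the adjusted p taken by limma over all 1195555 probesets (0.654% lower and 0.57% higher among all, 1.22% together). At an unadjusted p under 0.05, 4 were lower and 0 higher. The share of all probesets at that unadjusted threshold was not computed, so such counts here and below have no background beside them. The probeset with the largest fall had log2 values of 6.997, 8.14 and 7.62 in SMNs and 11.68, 11.78 and 11.92 in the posterior horn, a difference of -4.21. Another read 9.64, 8.88 and 9.28 against 12.95, 12.95 and 12.99, a difference of -3.70. The remaining calls had differences of -2.64 and -1.57, and the latter was at the edge of the threshold (adjusted p = 0.0495 from limma) and was lost without any 1 of the 6 arrays. The pair that did not pass had differences of -0.60 and -0.51. All 6 probesets were lower in SMNs in sign, and their log2 differences were unequal (limma diffSplice, adjusted p = 3.0e-07), as they were in 21.6% of 21265 genes. Weakly responding probesets and different isoforms look alike in this test.

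Over the 6 gene-level arrays, the genes whose centred log2 profile lay nearest to that of Penk among 20177 other symbols were Sst, Pter and Fat4. Sst, the precursor of somatostatin, a peptide of excitatory dorsal horn neurons, was 13.1-fold lower in SMNs, at a Euclidean distance of 0.21 from Penk. Pter and Fat4, an atypical cadherin, lay at 0.30 and 0.31 and were 11.9-fold and 12.1-fold lower. Distances over 2 groups of 3 arrays mostly measure the size of the group difference.

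Pnoc, the precursor of nociceptin, was the other peptide gene that passed the test. Its intensity was 80.1, 52.9 and 82.3 in SMNs and 220.2, 145 and 123 in the posterior horn. The groups did not overlap, and posterior horn array 1 was the highest. Pnoc was 2.23-fold lower in SMNs (95% interval 1.37 to 3.62, adjusted p = 0.0322 from limma). The call was lost in 9 of 18 alternatives, including without SMN array 1 (adjusted p = 0.0732), 2 (0.0925) or 3 (0.0672), without posterior horn array 1 (0.0601) or 2 (0.0683), and with exon-level medians (log2 difference -0.53, adjusted p = 0.116). In another of these 9, the methods' t-test after adjustment, Pnoc had an adjusted p of 0.0802. Of its 6 probesets none passed at the exon level, where 2 were lower and 0 higher at an unadjusted p under 0.05 from limma.

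Pdyn, which encodes the dynorphins, was dim in both groups. Its intensity was 50.3, 36.9 and 41.1 in SMNs and 65.8, 62.3 and 143.9 in the posterior horn, while the median transcript cluster with 1 symbol lay between 133 and 144 across the arrays. All SMN values were below all posterior horn values, and posterior horn array 3 stood above the rest. Its 1.96-fold lower value in SMNs did not pass the test (95% interval 1.08 to 3.53, adjusted p = 0.0908 from limma). Without posterior horn array 3 the log2 difference was -0.58 instead of -0.97. None of the 6 Pdyn probesets passed. At an unadjusted p under 0.05 from limma, with no background share beside it, 2 were lower and 0 higher. One of these read 4.07, 4.02 and 2.77 on the log2 scale in SMNs against 5.15, 6.29 and 6.29 in the posterior horn. Both passed when the dimmer 50% of probesets, by the mean of all 6 arrays, was left out (adjusted p = 0.0459 for this one and 0.0434 from limma). The former had an SMN mean of 3.62, under 4.50, the mean of the array medians, and a posterior horn mean of 5.91. A filter that it could pass through its higher group alone cannot back a fall. The fold changes of the 6 probesets were unequal (limma diffSplice, adjusted p = 0.0212). This diffSplice call was lost without SMN array 1 (0.0866), 2 (0.0855) or 3 (0.247) and without posterior horn array 2 (0.111).

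Pomc, the precursor of beta-endorphin, had intensities of 169, 219 and 172 in SMNs and 182, 271 and 313 in the posterior horn. The groups overlapped, and the log2 difference of -0.43 did not pass (95% interval -1.03 to 0.18, adjusted p = 0.252 from limma). No Pomc probeset reached an unadjusted p under 0.05. The interval allows a fall of up to 2.04-fold.

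Among the receptors, Oprm1, which encodes the mu receptor for enkephalins and beta-endorphin, was 7.40-fold lower in SMNs. Its intensity was 16.9, 27.5 and 53.2 in SMNs and 298, 169 and 220.5 in the posterior horn. The SMN arrays ran from 7.38% to 23.2% of the posterior horn mean, and at such low intensities the fold moves with the value that is added. The log2 difference was -2.89 (standard error 0.44, 95% interval -3.95 to -1.83, adjusted p = 0.00713 from limma), and -2.37 with 16 added in place of 1. The fall held with each array left out in turn. It did not pass when all 238609 rows of the table were tested (adjusted p = 0.0688 from limma) or with the median of the exon-level probesets, which gave a log2 difference of -0.46 (adjusted p = 0.157 from limma).

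The exon level showed how unevenly Oprm1 was reported by its probesets. Of 36, 1 passed, lower in SMNs, after adjustment by limma, where 0.654% of all probesets were lower. At an unadjusted p under 0.05 from limma, 7 were lower and 1 higher, counts that have no background share beside them. The probeset that passed read 3.23, 4.76 and 4.71 on the log2 scale in SMNs and 8.005, 7.12 and 7.44 in the posterior horn, a difference of -3.29 (adjusted p = 0.0281 from limma). It no longer passed without any 1 of the 6 arrays. A further probeset ran the other way, with 5.72, 5.79 and 5.70 in SMNs and 4.89, 4.65 and 4.43 in the posterior horn, a difference of 1.08 (adjusted p = 0.0725 from limma, or 0.0293 when the dimmer 50% was not tested). In 16 of the 36, the mean log2 value was under 4.50, the mean of the array medians, in both groups. Over all 36 probesets the median log2 difference was -0.21, and 25 of them were lower in sign. The differences within the gene were unequal (limma diffSplice, adjusted p = 3.8e-06), and the plot of probeset differences shows their spread.

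**Figure D2:**
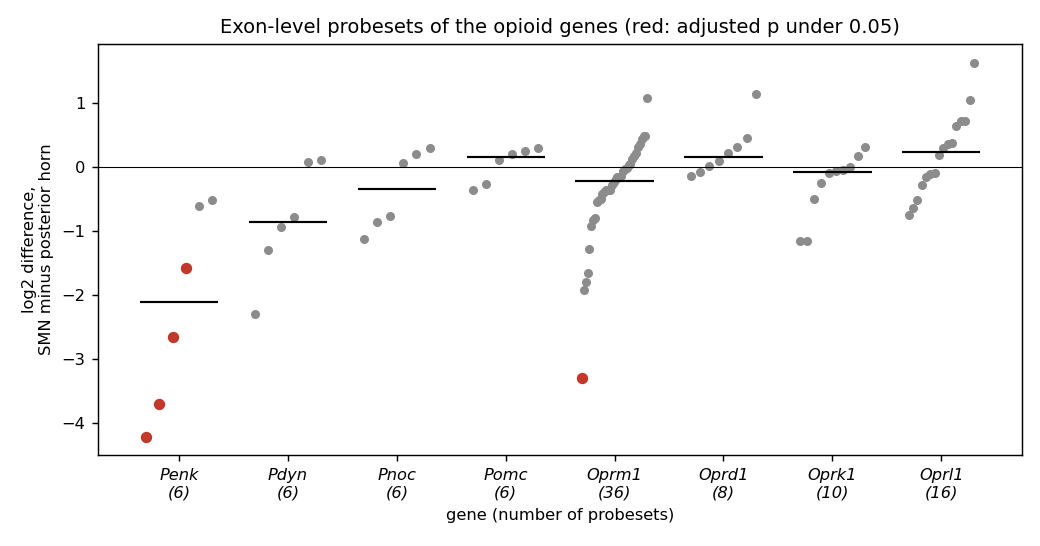
Log2 difference between SMN and posterior horn arrays (y axis) of each exon-level probeset, by gene (x axis, with the number of probesets), with a black line at the median of each gene and red points at an adjusted p under 0.05 from limma. Red points are 4 of 6 Penk probesets and 1 of 36 Oprm1 probesets, and the Oprm1 probesets spread from -3.29 to 1.08.

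The Oprm1 gene has several annotated starts. In RefSeq (GRCm38.p6, chromosome 10, plus strand) 3 starts had a promoter window, a pair of them 6 bases apart and the first and last 29983 bases apart. The 250 bases before an upstream and a downstream start are printed, because Oprm1 was the receptor gene that differed and its probesets disagreed. No array coordinates were at hand to assign a probeset to either start. They lie at chr10:6758343-6758592 and chr10:6788320-6788569, and capitals mark a CCAAT box (CCAAT, searched on both strands).
Oprm1 upstream start: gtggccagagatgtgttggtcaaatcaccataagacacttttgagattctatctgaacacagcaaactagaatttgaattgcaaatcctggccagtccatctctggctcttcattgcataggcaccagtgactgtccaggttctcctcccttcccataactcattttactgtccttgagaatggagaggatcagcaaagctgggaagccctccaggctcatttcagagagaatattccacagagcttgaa
Oprm1 downstream start: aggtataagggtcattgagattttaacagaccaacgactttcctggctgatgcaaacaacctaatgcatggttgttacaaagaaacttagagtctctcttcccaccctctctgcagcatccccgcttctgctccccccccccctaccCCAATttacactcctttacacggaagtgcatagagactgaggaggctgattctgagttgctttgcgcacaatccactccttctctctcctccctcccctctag
The downstream window held CCAAT at 103 bases before the start, as did 33.8% of 32851 such promoter windows of the genome on either strand. Neither window held TATAAA (12.4% of windows), GGGCGG (32.7%) or TGACGTCA, the cyclic AMP response element (1.55%). Promoter windows were at hand for Oprm1, Oprd1, Oprl1, Pdyn and Pomc.

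The genes nearest to Oprm1 in profile were Dpy19l3, Gsg1l and Kcnq1ot1, at Euclidean distances of 0.78, 0.79 and 0.81. Gsg1l, an auxiliary protein of AMPA receptors, had intensities of 20.9, 21.0 and 56.3 in SMNs and 317, 271 and 217 in the posterior horn. Dpy19l3, a C-mannosyltransferase, and Kcnq1ot1, a long noncoding RNA, were 5.63-fold and 5.93-fold lower in SMNs. These profiles lay farther from Oprm1 than those found for Penk lay from Penk.

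Oprd1, the delta receptor for enkephalins, had intensities of 80.9, 145 and 112 in SMNs and 79.1, 141 and 115 in the posterior horn. The values ran over the same range in both groups, and the log2 difference was 0.01 (95% interval -0.72 to 0.75, adjusted p = 0.980 from limma). The interval leaves room for a fall of up to 1.65-fold in SMNs, and for a rise of up to 0.75 on the log2 scale. At the exon level, none of 8 probesets passed, with 0 lower and 1 higher at an unadjusted p under 0.05 from limma. That probeset read 7.85, 7.10 and 7.58 in SMNs against 6.38, 6.01 and 6.70 on the log2 scale.

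Oprk1, the kappa receptor for dynorphins, had intensities of 82.0, 80.7 and 75.1 in SMNs and 136, 182 and 72.7 in the posterior horn. The SMN arrays were close together, while posterior horn array 3 lay below all of them. The log2 difference of -0.61 did not pass (95% interval -1.43 to 0.21, adjusted p = 0.229 from limma). It passed without posterior horn array 3, at -0.98 (adjusted p = 0.0277 from limma). The second Oprk1 transcript cluster did not pass either (log2 difference -0.69, adjusted p = 0.438), and there posterior horn array 3 was the highest, at 219.9 against 37.96 and 74.4. The same array was thus lowest in the first cluster and highest in the second. None of 10 probesets passed, and 2 were lower and 0 higher at an unadjusted p under 0.05 from limma.

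Oprl1, the nociceptin receptor, had intensities of 267, 322 and 345 in SMNs and 305, 352 and 567 in the posterior horn. The groups overlapped, and the log2 difference of -0.34 did not pass (95% interval -0.99 to 0.31, adjusted p = 0.388 from limma). With posterior horn array 3 left out it was -0.08. Its 16 probesets had log2 differences from -0.74 to 1.64, none passed, and 1 was lower and 2 were higher at an unadjusted p under 0.05 from limma. They were unequal by limma diffSplice (adjusted p = 0.0384), a call lost without SMN array 1 (0.1505) or 2 (0.361), without posterior horn array 1 (0.0812) or 2 (0.279), and when the dimmer 50% was not tested (0.153). The median over probesets was higher in SMNs by 0.33 (adjusted p = 0.376 from limma), opposite in sign to the gene-level value.

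**Figure D3:**
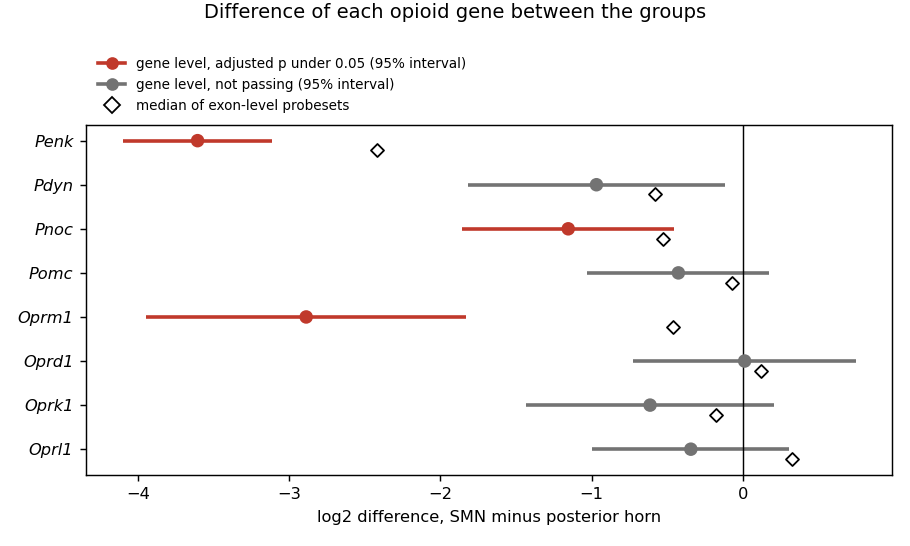
Log2 difference between SMN and posterior horn arrays (x axis) of each opioid gene, with the 95% interval of the gene-level difference (red where the adjusted p from limma was under 0.05) and, as an open diamond, the difference of the per-array median over exon-level probesets. Penk lay at -3.61 and -2.42, whereas Oprm1 moved from -2.89 to -0.46 and Oprl1 from -0.34 to 0.33.

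The fall of Penk was also set against that of the other precursors, and that of Oprm1 against the other receptors, within each array. These genes were picked after their values had been seen, so the differences are given as a description, with no test. The log2 difference between SMNs and posterior horn of Penk minus that of Pdyn was -2.64, minus that of Pnoc -2.45 and minus that of Pomc -3.18. For Oprm1 minus Oprd1, Oprk1 and Oprl1 it was -2.90, -2.28 and -2.55. The 6 pairs within the families that involved neither gene had differences from -0.73 to 0.63.

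Beyond the 8 genes, 64 of 72 listed genes that make or degrade the peptides, act behind the receptors, regulate either or share the opioid name were measured. Of these 28 were lower and 6 higher in SMNs after adjustment by limma, 53.1% against 26.4% of all transcript clusters, and the median log2 difference was -0.54. The lower count fell to 17 without SMN array 1, 18 without SMN array 2, 16 without SMN array 3 and 18 without posterior horn array 2. Among all transcript clusters, the lower count went from 3069 to 1791, 1741, 1766 and 2267 in the same order. The share of 26.4% is not a like background, since it includes dim and second clusters, while each listed gene stood by its brightest. With 1 row per symbol the lists had 29 lower and 7 higher, and all 20178 symbols 3086 lower and 3519 higher. With the dimmest 25% left out these were 29 and 9, against 3493 and 3929 of 18257 clusters. Pcsk2, Ace, Dpp3, Lnpep, Grk2, Gprasp1 and Gprasp2 were among those not measured here under their names.

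Peptide processing and granule genes were mostly lower, with 7 of 13 lower, 1 higher and 5 not passing. The shares of all transcript clusters were 12.6% lower and 13.8% higher. Pcsk1, a convertase that cuts opioid precursors, had 152 ± 49.3 in SMNs and 1066 ± 277 in the posterior horn (SD, n = 3 each) and was 7.04-fold lower (log2 difference -2.82, adjusted p = 0.00283 from limma), with a log2 difference of -2.12 for exon-level medians. Pcsk6, a convertase of the same family, was dim in SMNs (36.2, 14.9 and 21.5 against 121, 174 and 177) and 6.58-fold lower. Its log2 difference of -2.72 was -2.12 with 16 added and -0.77 with exon-level medians, and the call was lost when all rows of the table were tested (adjusted p = 0.0506 from limma). Pcsk5, of that family too, was 5.40-fold lower, with a log2 difference of -2.43 that was -3.07 without SMN array 3 and -0.65 with exon-level medians, and it lost the call in 7 of 18 alternatives, among them without SMN array 1 or 2 and without any 1 posterior horn array (adjusted p up to 0.0753 from limma). Scg2, secretogranin II, was 2.03-fold lower, although not when all rows of the table were tested. The 1 higher was Chga, chromogranin A, at 3288 ± 54.4 among the SMN arrays and 1678 ± 172 among those of the posterior horn (n = 3 each, SD). Cpe, which trims the cut peptides, read 4342, 4190 and 4039 in SMNs and 6167, 6217 and 6707 in the posterior horn.

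Of 6 peptide-degrading enzymes, 1 was lower, 1 higher and 4 did not pass (12.6% lower and 13.8% higher among all transcript clusters). Mme, which encodes neprilysin, a protease that degrades enkephalins, was 10.1-fold lower, with 83.0, 169 and 144 in SMNs and 1425, 1327 and 1124 in the posterior horn (adjusted p = 0.00148 from limma). It kept the call in all 18 alternatives. Ece2, an endothelin-converting enzyme, was 2.01-fold higher, a call lost in 6 of 18 alternatives, among them without SMN array 1, 2 or 3 (adjusted p up to 0.0686) and with exon-level medians (log2 difference 0.34 in place of 1.01).

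Receptor effectors were lower in 9 of 14 cases, and 0 were higher (0 higher at an unadjusted p under 0.05 from limma and 0 by the methods' t-test). After adjustment by limma, 12.6% of all transcript clusters were lower and 13.8% higher. Adcy1, an adenylyl cyclase, was 5.27-fold lower, with 413, 367 and 366 in SMNs and 2138, 1877 and 2038 in the posterior horn. Its log2 difference of -2.40 was -0.89 with exon-level medians, which passed. Kcnj6, a subunit of the G protein-gated potassium channel, was 4.05-fold lower at the gene level (adjusted p = 0.000959 from limma), but its log2 difference was -0.34 with exon-level medians (adjusted p = 0.422 from limma). Cacna1b, the N-type calcium channel, was 2.92-fold lower (log2 difference -1.55, and -0.53 with exon-level medians, which passed), and Gnai2, an inhibitory G protein subunit, 2.82-fold lower. Kcnj3, Kcnj5, Gnaz, Gnai3 and Cacna1a did not pass.

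Of 13 receptor regulators, 6 were lower, 1 was higher and 6 did not pass, while by the methods' t-test after adjustment 3 were lower and 1 higher. Grk3, a kinase that acts on activated receptors, was 5.87-fold lower, but its call was lost in 7 of 18 alternatives, among them without SMN array 1 or 3 and without posterior horn array 1 or 2 (adjusted p up to 0.0780). Its log2 difference of -2.55 was -1.93 with exon-level medians. The dimmer Grk3 transcript cluster was 6.89-fold lower (adjusted p = 0.0031 from limma). Arrb1, beta-arrestin 1, was 2.52-fold lower, but not when all rows of the table were tested (adjusted p = 0.0945 from limma), and Rgs17, a regulator of G protein signaling, 2.62-fold lower. Rgs4, of the same family, went the other way, with 2589, 2632 and 2765 in SMNs against 709.9, 480 and 499 in the posterior horn, a 4.80-fold rise (adjusted p = 0.00146 from limma). Opcml, an opioid-named cell adhesion protein, was 1.88-fold lower in its brightest transcript cluster, while the other clusters did not pass and one of them had a positive log2 difference (0.63, adjusted p = 0.0953 from limma). The fall of Opcml did not pass with exon-level medians or when all rows of the table were tested. Ogfr, Ogfrl1 and Ackr3 did not pass.

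**Figure D4:**
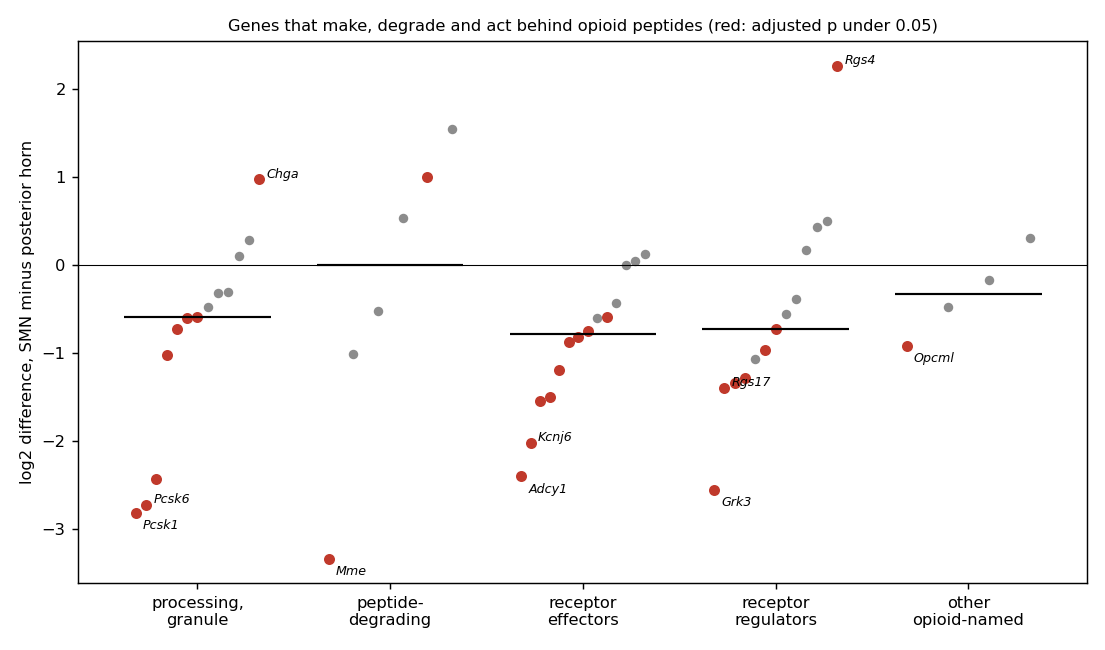
Log2 difference between SMN and posterior horn arrays (y axis) of each measured gene in 5 lists (x axis), with a black line at the list median and red points at an adjusted p under 0.05 from limma. Most red points lie below 0, with Mme and Pcsk1 among the lowest, and Rgs4 and Chga lie above 0.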

How the data were processed

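The deposited gene-level values are linear intensities and the deposited exon-level values are log2 values of the same 6 arrays. The authors made both with Affymetrix Expression Console 1.3.1.187, per the labels, while for background correction, probe summarization and build the entry is: not given in the sources used here. Array medians were alike (32.9 to 35.2), so values were not normalized again. Of 238609 gene-level rows, 24343 carried 1 symbol (updated through Entrez identifiers or RefSeq synonyms), and the brightest row stood for a symbol. Gene-level differences were tested on log2(intensity + 1) with limma 3.58.1 under R 4.3.3 (two-sided, Benjamini-Hochberg), and the probesets of the exon level in the same way and, within genes, with diffSplice. The test was tried on simulated data. The number of arrays limits the precision. Members and lists were chosen with earlier results of these data known. All 8 members were named, up to 4 called genes with the largest difference per list (the 2 brightest where none was called), and the 3 genes nearest in profile to the precursor and the receptor with the largest difference. Chga, Cpe and genes named as not passing were added after their values were seen. The alternatives are those of the closing section. Sequencing data were not used here.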

Additional observations from a re-analysis of the deposited data

How the results depend on the processing

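The 3 calls of opioid genes became 1 (Penk) when all rows of the table were tested and 1 (Penk) with exon-level medians per gene, and ranged from 2 to 4 with an array left out. Of 144 values of the 8 genes under alternatives, 128 kept their direction and their side of the threshold, 11 lost the call (Pnoc 9, Oprm1 2), 1 gained it (Oprk1 without posterior horn array 3) and 4 turned direction. Oprd1 ranged from -0.21 to 0.23 with an array left out (3 of the turns), and Oprl1 was 0.33 with exon-level medians. The 28 lower genes of the other lists became 8 with all rows tested and 17 with the replicate block, and 16 to 24 with an array left out. The 6 higher became 10 with a floor of 16, 2 with all rows tested and 11 with the methods' t-test unadjusted, and 4 to 9 with an array left out. Of 378 values of the other 21 named genes, 35 lost the call, 6 gained it and 0 turned direction. The 5 lower probesets became 2 with the replicate block and 3 with each array left out, and 1 probeset was higher (0 before) with the dimmer 50% left out. The 4 genes with unequal probesets became 2 without SMN array 1 or 2 or posterior horn array 2 (2 to 4 with an array left out). The causes of these changes were not tested. Whether the replicate numbers of the labels pair the arrays could not be decided. Correlations of deviations were 0.03, -0.01 and 0.02 for same-numbered arrays and from -0.04 to 0.03 for the others. These values are too near 0 to show a pairing or its absence, and not every array correlated best with its own number. With the replicate numbers as a block Pnoc did not pass (adjusted p = 0.0547 from limma). All transcript clusters then gave 1867 higher and 1931 lower, against 3351 and 3069. The median of all transcript clusters moved by less than 0.1 on the log2 scale under each scaling. Pdyn, Pnoc, Oprm1 and Oprk1 were dim in SMNs, so the sizes of their differences are less certain than that of Penk.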

Other observations

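The melanocortin receptors, which bind products of Pomc other than beta-endorphin, were all measured. Of 4, none passed after adjustment by limma, while 1 was lower and 0 higher at an unadjusted p under 0.05 and 1 was lower by the methods' t-test after adjustment. Mc5r had intensities of 252, 271 and 278 in SMNs and 390.3, 381 and 343 in the posterior horn, and all SMN arrays lay below (adjusted p = 0.0556 from limma, 0.0135 to 0.366 in the other adjusted analyses). It passed in 6 of 18 alternatives, among them the methods' t-test. Mc4r had 243 ± 30.2 in SMNs and 199 ± 46.5 in the posterior horn (SD, n = 3 each), which overlapped.

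Of 10 transcription factors known for acting on opioid genes, 4 were lower, 3 higher and 3 did not pass in SMNs. By the same rule 12.6% of all transcript clusters were lower and 13.8% higher. Kcnip3, also called DREAM, a calcium sensor that represses Pdyn, was 3.60-fold lower, with 119, 135 and 166 in SMNs and 456, 552 and 505 in the posterior horn (adjusted p = 0.00216 from limma). Rest, a repressor of neuronal genes, was 2.64-fold lower, a call that did not pass with exon-level medians (log2 difference -0.43 in place of -1.40) or with all rows tested. Jun, a subunit of the AP-1 factor, was 3.18-fold higher, with 2097, 2170.1 and 2107 in SMNs and 803, 625 and 595 in the posterior horn (log2 difference 1.67, adjusted p = 0.00235 from limma). The difference was 0.86 for exon-level medians, which passed. Fos, its partner, was 1.95-fold higher, and this call was lost in 7 of 18 alternatives, among them without SMN array 1 or 3 and without posterior horn array 2 or 3 (adjusted p up to 0.0881 with an array left out).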
